A study of Mus musculus with 12 samples.

Results

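The opioid system of the dorsal raphe (DR) is described here by 8 genes, chosen by symbol from the 24421 genes counted in each sample. They are the 4 peptide precursors Penk, Pdyn, Pnoc and Pomc and the 4 receptors Oprm1, Oprd1, Oprk1 and Oprl1, and all 8 passed the filter on low counts that kept 15453 genes. RNA was sequenced from the DR of 12 adult mice, 1 library per animal. The question was how gene expression differed when both alleles of the transcription factor gene Stat3, rather than 1, were targeted in serotonergic cells. The 4 controls (2 females, 2 males) were Sert Cre/+; Stat3 fl/+ littermates and the 8 STAT3 KO mice (4 females, 4 males) were Sert Cre/+; Stat3 fl/fl. Both groups therefore carried Cre under the serotonin transporter gene and at least 1 floxed Stat3 allele, shared a C57BL/6 x 129 background and were housed singly. Deletion was directed to cells that express the transporter, whereas the dissected tissue held every cell type of the area below the aqueduct. The authors found reduced STAT3 in serotonergic cells of STAT3 KO mice and state that its absence from every such cell could not be shown.

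Opioid peptides are cut from larger precursors and act on receptors that couple to inhibitory Gi and Go proteins, which close calcium channels, open potassium channels and lower cyclic AMP. Enkephalins, from Penk, act mainly on the delta receptor (Oprd1) and the mu receptor (Oprm1), dynorphins, from Pdyn, mainly on the kappa receptor (Oprk1), beta-endorphin, from Pomc, on mu and delta, and nociceptin, from Pnoc, on its own receptor (Oprl1). In the DR these receptors are known for their action on serotonergic neurons and on the GABA and glutamate inputs to them, and through these on mood, pain and reward.

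The precursors share a short core that the receptors read, a tyrosine (phenylalanine in nociceptin) followed by 2 glycines and a phenylalanine. The 51 coding bases that start at this core, read from GENCODE vM21 transcripts of GRCm38 (mm10) on the coding strand, are shown because they are what makes these 4 genes a family. The 12 core bases are in capitals, and for Penk the first of its copies and for Pdyn the copy of dynorphin A is given.
Penk: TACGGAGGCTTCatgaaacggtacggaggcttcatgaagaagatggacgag
Pdyn: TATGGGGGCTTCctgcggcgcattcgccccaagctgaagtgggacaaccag
Pnoc: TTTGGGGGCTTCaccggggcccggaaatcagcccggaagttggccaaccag
Pomc: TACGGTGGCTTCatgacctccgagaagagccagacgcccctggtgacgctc
The coding sequence of Penk, 268 codons without the stop, held this core 7 times, 6 followed by methionine and 1 by leucine. Pdyn held it 3 times, each followed by leucine, and Pomc and Pnoc held it once each, so that 1 Penk transcript encodes more copies of an opioid core than a transcript of any other member. The Penk stretch lies in exon 2 at chr4:4134298-4134348 (minus strand), that of Pdyn in exon 4 at chr2:129688094-129688144 (minus strand), that of Pnoc in exon 3 at chr14:65404842-65404892 (minus strand) and that of Pomc in exon 3 at chr12:3960373-3960423 (plus strand). Beyond the core they shared little, with 11 to 19 identical bases of the other 39 between any 2 of them and most between Pdyn and Pnoc.

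The receptors are much closer to each other. The 51 coding bases from the aspartate, arginine and tyrosine codons at the inner end of the third membrane helix, a stretch that contacts the G protein, are shown with those 9 bases in capitals.
Oprm1: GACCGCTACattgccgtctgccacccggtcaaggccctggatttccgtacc
Oprd1: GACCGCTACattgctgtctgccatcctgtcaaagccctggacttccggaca
Oprk1: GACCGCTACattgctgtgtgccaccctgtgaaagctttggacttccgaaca
Oprl1: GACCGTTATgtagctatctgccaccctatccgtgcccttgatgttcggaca
Oprd1 and Oprk1 had 45 of these 51 bases in common and Oprm1 and Oprd1 44, while Oprl1 had 33 to 37 in common with the other receptors. Over the whole coding sequence the identity of aligned bases was 69.7% to 71.9% among Oprm1, Oprd1 and Oprk1 and 67.3% to 68.2% between Oprl1 and any of them. These stretches lie at chr10:6829090-6829140 (Oprm1, exon 2, plus strand), chr4:132117213-132117263 (Oprd1, exon 2, minus strand), chr1:5598795-5598845 (Oprk1, exon 3, plus strand) and chr2:181718582-181718632 (Oprl1, exon 3, plus strand).

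Libraries held 24379588 to 27849492 gene counts in controls and 27324999 to 29645210 in STAT3 KO mice. Levels of single genes are given as counts per 1000000 (CPM) of the counts on genes that passed the filter, with library sizes scaled by TMM factors. Without the filter and these factors, 3 counts equalled 0.101 to 0.123 per 1000000 gene counts. Serotonergic markers were high in every library: Tph2, the enzyme that makes neuronal serotonin, was at 540.1 to 879.1 CPM and Slc6a4, the transporter that drives Cre, at 151 to 405 CPM. Stat3 itself was at 64.7 to 68.0 CPM in controls and 62.8 to 70.1 CPM in STAT3 KO mice, and since counts of the whole gene do not resolve the deleted exons and come from all cells, this did not check the genotype labels. Several libraries stood apart in markers of neighbouring tissue. Summed forebrain excitatory markers were at 85.2 to 494 CPM in controls, highest in control 4, and at 77.3 to 167 CPM in STAT3 KO mice, highest scores in 16 and 15, with 12 of 12 markers lower in STAT3 KO (median log2 fold change -1.03, 4 with an unadjusted p below 0.05). Summed choroid plexus markers reached 247 CPM in STAT3 KO against 27.2 CPM at most in controls, with 7 of 7 tested markers higher (median log2 fold change 0.32) and the highest scores in STAT3 KO 16 and 8. Summed cerebellar markers reached 942 CPM in STAT3 KO, highest score in 16, against 426 CPM at most in controls, with 10 of 12 markers higher (median log2 fold change 0.50). Dopamine neuron markers reached 578 CPM in controls, highest score in control 3, against 399 CPM at most in STAT3 KO, and noradrenergic markers 60.3 CPM in STAT3 KO, highest score in 14, against 22.4 CPM. In bulk tissue fewer cells of a type and less RNA per cell cannot be told apart.

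Penk was the most abundant member once gene length was counted, and Oprm1 the least. Per kilobase of exon, Penk stood at 75.8 ± 11.6 CPM (mean ± SD, n = 12 animals), followed by Oprl1 at 33.1 ± 1.73, Pnoc at 15.3 ± 2.28, Pdyn at 3.36 ± 0.311, Oprk1 at 2.32 ± 0.0850, Pomc at 1.70 ± 0.346, Oprd1 at 1.33 ± 0.321 and Oprm1 at 0.460 ± 0.124. The nociceptin receptor was thus the most abundant receptor transcript, at a higher level per kilobase than its own ligand precursor Pnoc in 12 of 12 animals. Neighbours in this order were compared within animals with a two-sided exact sign-flip permutation test of the log2 difference, adjusted over the 7 pairs. The order was taken from the same values, so the p-values describe how steady it was across animals and are not independent support for it. Over all animals 7 of 7 differed, with adjusted p = 0.000684 for 5 pairs, 0.00114 for Oprk1 over Pomc (0.47 on the log2 scale, higher in 11 of 12 animals) and 0.0444 for Pomc over Oprd1 (0.36, higher in 9 of 12 animals). This last order was that of the STAT3 KO mice. In controls Oprd1 stood at 1.68 ± 0.262 and Pomc at 1.44 ± 0.112 CPM per kilobase, and Pomc was above Oprd1 in 1 of 4 animals (-0.22 on the log2 scale), while in STAT3 KO mice it was above in 8 of 8 (0.65). Leaving out any 1 of the 8 STAT3 KO mice took the adjusted p of this pair to 0.0576 to 0.0889, with 6 of 7 pairs then different. The lower part of the order depended on the gene model. With the longest transcript as length, 2420 bases for Oprm1 in place of 8037 bases of exon in all its 31 transcripts, Oprm1 stood 0.19 above Oprd1 on the log2 scale, in 7 of 12 animals (adjusted p = 0.210, exact permutation test), and Oprk1 stood 0.17 above Pdyn (adjusted p = 0.00798).

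**Figure D1:**
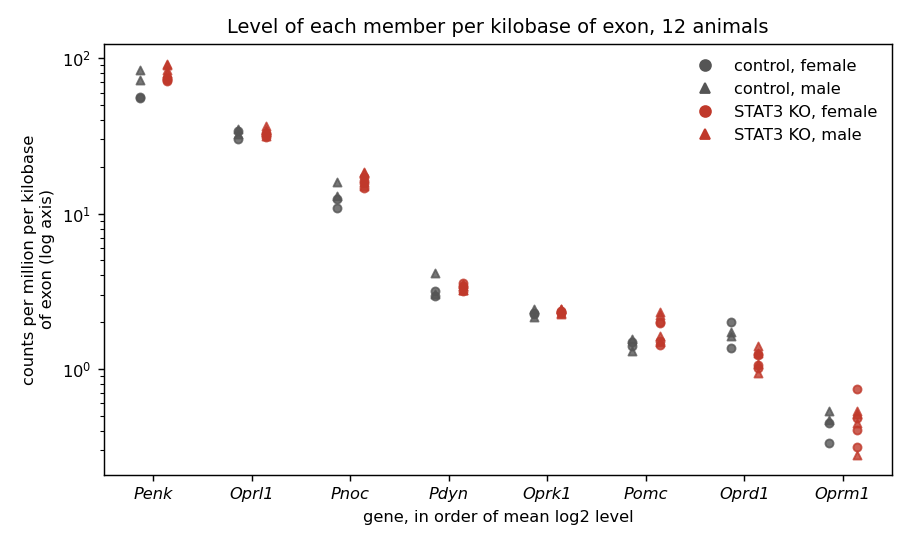
Level of each member in each of the 12 animals, as CPM per kilobase of exon on a log axis, with controls in grey and STAT3 KO mice in red, females as circles and males as triangles. Penk, Oprl1 and Pnoc stood well above the other 5 members, and Oprm1 was lowest at 0.460 ± 0.124 CPM per kilobase.

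The members also differed in how steady they were between animals. Oprk1, 21.2 CPM on average, varied by 3.67% of its mean over the 12 animals (19.8 to 22.3 CPM) and Oprl1, 124 CPM, by 5.23% (114 to 137 CPM). Oprm1, at 3.69 CPM on 63 to 170 counts per library, varied by 27.0%, and its biological coefficient of variation in the fit (the spread beyond counting noise) was 0.236, above that of 94.0% of the 15453 genes. The median of all genes was 0.0822, Oprk1 had 0.0542 and the other members lay between 0.0595 (Oprl1) and 0.148 (Pomc). Both ends of the range were thus taken by receptors.

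Between genotypes, the delta receptor gene Oprd1 was lower in STAT3 KO mice and the precursors Pnoc, Penk and Pomc were higher, but none passed the test over all genes. The edgeR quasi-likelihood test called 0 of 15453 genes (0%) and 0 of the 8 members at an adjusted p below 0.05, where DESeq2 called 6 genes and the edgeR likelihood ratio test 3, none of them members. At an unadjusted p below 0.05 it gave 1184 genes (7.66%) and 4 of the 8 members. With each animal left out this count of members ran from 2 to 4 and was 2, Oprd1 and Pnoc, without control 13 or without control 3. By the exact permutation test, which takes every way to part the 12 animals into 4 and 8, 7.1% of all genes and 3 of the 8 members had a p below 0.05. The members were chosen with earlier results of these data known, so these shares describe the 8 genes and do not test them as a set. Controls and STAT3 KO mice did not overlap in 0.447% of all genes, and in 0 members. The median log2 fold change of the members was 0.04 and that of all genes -0.0011, with 7 members above 0 and 1 below.

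**Figure D2:**
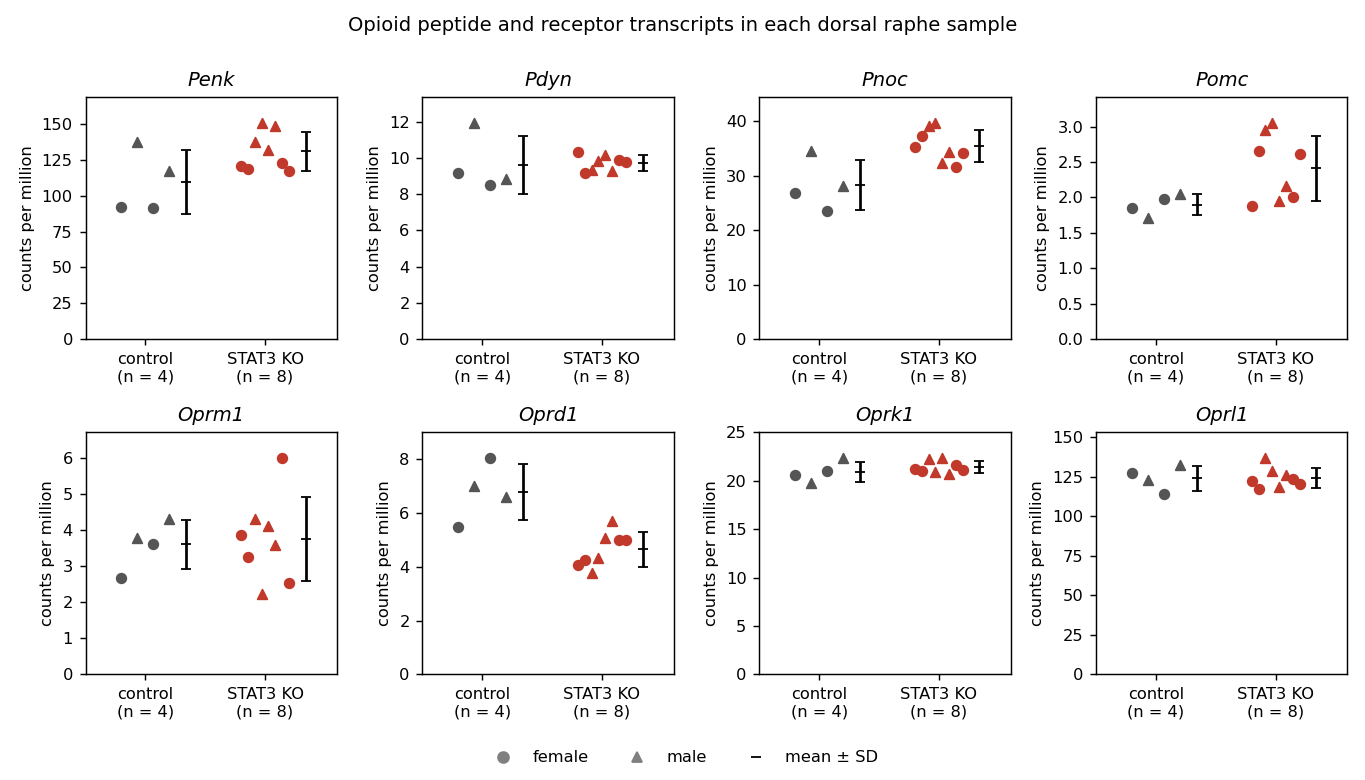
CPM of each member in each animal on axes that start at 0, with precursors above and receptors below, controls in grey, STAT3 KO mice in red, females as circles and males as triangles, and bars for mean ± SD. Oprd1 lay below every control in 7 of 8 STAT3 KO mice, and Pnoc lay above every control in 4 of 8.

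Oprd1, the receptor for enkephalins, was at 5.48 CPM in control 13, 6.98 in control 4, 8.03 in control 3 and 6.59 in control 11. In STAT3 KO mice it was at 3.78 CPM at the lowest (8), 4.64 at the median and 5.68 at the highest (14). All 8 STAT3 KO mice were below the control mean and 7 of 8 were below every control, so that the groups overlapped by 1 animal, control 13 with STAT3 KO 14. Means were 6.77 ± 1.05 (n = 4) and 4.64 ± 0.637 CPM (n = 8), a log2 fold change of -0.55 (SE 0.12, 95% confidence interval -0.80 to -0.29, edgeR unadjusted p = 0.000349, adjusted p = 0.615). This was the 5th lowest p of 15453 genes, and the two-sided exact permutation test gave p = 0.00404. The value rested on 105 to 215 counts per library. In both sexes the difference in mean log2 CPM was -0.54. With DESeq2 the adjusted p was 0.0680, and over all 22 alternatives the log2 fold change lay between -0.63 and -0.45 with adjusted p of 0.0680 at the lowest. Choroid plexus markers had r = -0.59 with Oprd1 across the 12 animals (permutation p = 0.0415, adjusted p = 0.612, rho = -0.54, permutation p = 0.0744) and r = -0.46 without controls 3 and 4. Without the 2 libraries in which they were raised the log2 fold change was -0.48 (unadjusted p = 0.00160).

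Pnoc, the nociceptin precursor, was at 26.9, 34.5, 23.5 and 28.2 CPM in controls 13, 4, 3 and 11. In STAT3 KO mice it ran from 31.5 (7) over a median of 34.8 to 39.8 CPM (6). Control 4, the library with the highest forebrain markers, was the one control inside the range of the STAT3 KO mice, and 8 of 8 of these were above the control mean. The log2 fold change was 0.33 (SE 0.09, 95% confidence interval 0.14 to 0.52, edgeR unadjusted p = 0.00205, adjusted p = 0.615), the 37th lowest p, and the exact permutation test gave p = 0.0101. Without control 4 it was 0.44 (unadjusted p = 5.58e-05, adjusted p = 0.0789), and without the 4 libraries with raised forebrain markers 0.46 (adjusted p = 0.261). Without control 3 it was 0.25 (unadjusted p = 0.00989, adjusted p = 0.979), and without the 2 libraries with raised choroid plexus markers 0.29 (unadjusted p = 0.00749). Summed GABA neuron markers were at 2240.1 to 2452.4 CPM in controls and 2234.7 to 2622.5 CPM in STAT3 KO mice, with 7 of 10 higher and 3 lower. The mean standardised level of these markers was lower in controls 13, 3 and 11 (-0.46, -0.64 and -0.50) than in any STAT3 KO mouse (-0.28 at the lowest) and was at 0.30 in control 4. Across the 12 animals it had r = 0.61 with Pnoc (permutation p = 0.0350, rho = 0.53, permutation p = 0.0792) and r = 0.58 with Penk (permutation p = 0.0459, rho = 0.50, permutation p = 0.105), with adjusted p of r 0.601 and 0.612, and r was 0.25 and 0.17 without control females 3 and 13. With the genotype means removed r was 0.35 and 0.38, and within the 8 STAT3 KO mice -0.24 and -0.07 (exact permutation p = 0.543 and 0.858). The part of these markers in the differences was not tested.

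Penk, the enkephalin precursor, was at 92.0, 137, 91.1 and 118 CPM in controls 13, 4, 3 and 11, and ran from 117 (5) over a median of 127 to 151 CPM (6) in STAT3 KO mice. The 2 control females, 13 and 3, were the lowest animals of all and the control males lay inside the range of the STAT3 KO mice. The log2 fold change was 0.26 (SE 0.10, 95% confidence interval 0.04 to 0.48, edgeR unadjusted p = 0.0249, adjusted p = 0.615), with 8 of 8 STAT3 KO mice above the control mean and an exact permutation p = 0.0465. On mean CPM in place of log2 CPM the exact permutation p was 0.0687. Without control 13 or control 3 the unadjusted p was 0.105 in each case, with log2 fold changes of 0.19 and 0.18. Without control 4 the log2 fold change was 0.39 (edgeR unadjusted p = 0.000935, adjusted p = 0.190). Without the 4 libraries with raised forebrain markers it was 0.44 (unadjusted p = 0.000904, adjusted p = 0.266). With sex as covariate the unadjusted p was 0.000247 (log2 fold change 0.27, adjusted p = 0.615). Of the exon bases of Penk, 14.3% are shared with a transcript on the opposite strand, which was not analysed here, and whether strand was used in counting is not given in the sources used here.

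Pomc, the precursor of beta-endorphin and of the melanocortins, was near the lower end of what was measured. It was at 1.86, 1.71, 1.98 and 2.04 CPM in controls 13, 4, 3 and 11 and at 1.88 (10) to 3.06 CPM (6) in STAT3 KO mice, median 2.39, on 45 to 86 counts per library. Of the STAT3 KO mice 5 of 8 were above every control and the other 3 lay among them. The log2 fold change was 0.34 (SE 0.16, 95% confidence interval 0.01 to 0.68, edgeR unadjusted p = 0.0429, adjusted p = 0.646), and the exact permutation p was 0.0606. The unadjusted p lay between 0.0576 and 0.106 when control 13, 4 or 3 or STAT3 KO 16, 8, 6 or 5 was left out. Without STAT3 KO 8 and 16, the libraries with raised choroid plexus markers, it was 0.27 (unadjusted p = 0.122). Pomc neurons and corticotrophs lie in the hypothalamus and pituitary. Of 10 pituitary markers 7 had fewer than 3 counts in every library, among them Gh, Prl and Tbx19, and the other 3 were tested, with 2 higher and 1 lower, a median log2 fold change of 0.35 and 1 unadjusted p below 0.05. The 10 summed to 1.94 to 5.48 CPM in controls and 2.48 to 3.52 CPM in STAT3 KO mice, and their part in the difference was not tested. Hypothalamic markers summed to 68.9 to 578 CPM in controls and 53.6 to 355 CPM in STAT3 KO mice. Of these 13 markers 6 were tested, with 2 higher and 4 lower and a median log2 fold change of -0.20. Pomc had r = 0.02 with their mean level (permutation p = 0.961), and their part in the difference was not tested.

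The other 4 members differed by less than their spread. The kappa receptor Oprk1 was at 20.6, 19.8, 21.0 and 22.3 CPM in controls 13, 4, 3 and 11 and at 20.7 to 22.3 CPM in STAT3 KO mice (median 21.2), a log2 fold change of 0.03 whose 95% confidence interval ran from -0.07 to 0.13. For the nociceptin receptor Oprl1 the controls ran from 114 to 132 CPM and the STAT3 KO mice from 118 to 137 CPM, with a log2 fold change of 0.0025 and an interval of -0.10 to 0.10, so that the ligand precursor Pnoc and its receptor had different point estimates. Pdyn, the dynorphin precursor, was at 8.52 to 9.19 CPM in controls 3, 11 and 13 and at 11.96 CPM in control 4, and at 9.19 to 10.3 CPM in STAT3 KO mice (log2 fold change 0.01, interval -0.17 to 0.20). The mu receptor Oprm1 ran from 2.68 to 4.32 CPM in controls and from 2.24 to 5.99 CPM in STAT3 KO mice, and its interval of -0.40 to 0.51 was the widest of the 8. Exact permutation p was 0.319 for Oprk1, 0.945 for Oprl1, 0.768 for Pdyn and 0.964 for Oprm1. These intervals allow differences of up to 0.13 for Oprk1 on the log2 scale but of 0.51 for Oprm1, so the depth and spread limit the 2 receptors very unequally.

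**Figure D3:**
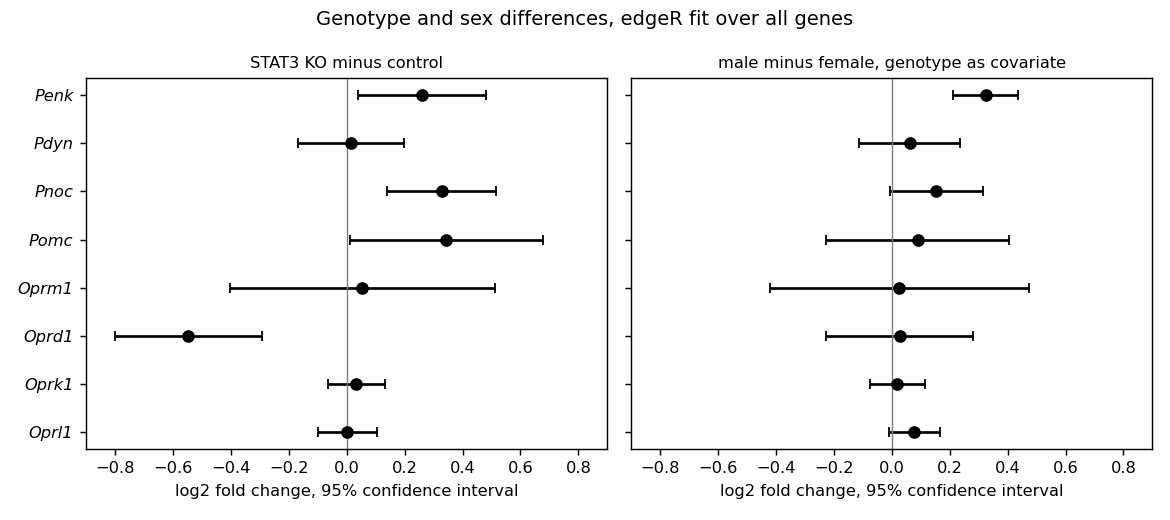
Log2 fold change of each member with its 95% confidence interval from the edgeR fit over all genes, on the left STAT3 KO minus control and on the right male minus female with genotype as covariate. The interval of Oprd1 lay below 0 on the left (-0.80 to -0.29), and that of Penk lay above 0 on the right (0.21 to 0.44).

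Sex was compared with genotype as covariate, since both genotypes held equal numbers of females and males. Penk was higher in males and was the one member called, among 13 genes of 15453 (0.0841%) with an adjusted p below 0.05 in the edgeR quasi-likelihood test. The other 12 were Igf2, the X-linked genes Xist, Kdm6a, Kdm5c, Ddx3x, Eif2s3x and Pbdc1 and the Y-linked genes Ddx3y, Kdm5d, Eif2s3y, Uty and Uba1y, so that Penk and Igf2 were the only genes on an autosome. Control females were at 92.0 and 91.1 CPM and control males at 137 and 118 CPM. STAT3 KO females were at 117 to 123 CPM and STAT3 KO males at 132 to 151 CPM. Within each genotype the lowest male was above the highest female. Males and females were apart in the same direction within both genotypes in 0.9% of all genes and in 1 of 8 members, Penk, and 5 of 6 males were above every female of either genotype. The log2 difference was 0.32 (SE 0.05, 95% confidence interval 0.21 to 0.44, edgeR unadjusted p = 2.06e-05, adjusted p = 0.0289). An exact permutation of the sex labels within genotype, 420 splits, gave p = 0.00476, the smallest that it can give.

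The call of Penk did not survive every change of the samples. Leaving out each animal in turn kept the log2 difference between 0.27 and 0.35 but took the adjusted p above 0.05 for 8 of the 12 animals, controls 13, 3 and 11 and STAT3 KO 10, 16, 6, 14 and 5, up to 0.136. Without the 4 libraries with raised forebrain markers the difference was 0.29 (adjusted p = 0.223), and without the 2 with raised choroid plexus markers 0.34 (adjusted p = 0.107). With limma-voom and sample weights it was 0.31 (adjusted p = 0.0200). The mean standardised level of cerebellar markers was -0.84 to -0.25 in the 6 males, 0.85, 0.95 and 1.95 in control 3 and STAT3 KO 10 and 16, and -0.60 to 0.09 in the other 3 females. With Penk they had r = -0.57 once genotype means were removed and -0.08 once those of sex were removed as well. Striatal markers were at -0.18 to 0.38 in males and -0.51 to 0.28 in females on the same scale, and had r = 0.52 and -0.15 with Penk in the same way. The part of either list in the sex difference was not tested.

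For the other precursors and receptors the sex differences did not pass the test. At an unadjusted p below 0.05 the edgeR test gave 7.2% of all genes and Penk alone of the 8 members. Pnoc was 0.15 higher in males on the log2 scale (SE 0.07, edgeR unadjusted p = 0.0594) and Oprl1 0.08 (SE 0.04, unadjusted p = 0.0823). Oprd1 differed by 0.03 (95% confidence interval -0.23 to 0.28) and Oprm1 by 0.03 (-0.42 to 0.47).

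Whether the genotype difference depended on sex was tested as an interaction. The edgeR quasi-likelihood test called 0 genes (0%) and the likelihood ratio test 1, 5.49% of all genes had an unadjusted p below 0.05, and of the members only Penk did. STAT3 KO females were 0.39 above control females in mean log2 CPM of Penk and STAT3 KO males 0.16 above control males, and the interaction was -0.23 (SE 0.10, edgeR unadjusted p = 0.0335, adjusted p = 0.907). Pnoc was 0.45 higher in STAT3 KO females and 0.22 higher in STAT3 KO males, with an interaction of -0.24 (SE 0.15, edgeR unadjusted p = 0.139). With 2 controls of each sex the intervals are wide: for Oprm1 the interaction ran from -1.44 to 0.46.

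Across the 12 animals few members moved together. Of the 28 pairs, 2 had a Pearson correlation of log2 CPM that passed adjustment over the pairs by permutation, and 0 had a Spearman correlation that did. Penk and Pnoc had r = 0.82 (permutation p = 0.00158, adjusted p = 0.0442) and rho = 0.72 (permutation p = 0.0109, adjusted p = 0.168). Both were lowest in the control females 3 and 13, and without these 2 animals r was 0.50, so the relation rested on them. Within the 8 STAT3 KO mice r was 0.41 (exact permutation p = 0.307), with the genotype means removed it was 0.72, and with the means of genotype and sex removed 0.53. The opposite pair was Oprd1 and Pnoc, with r = -0.77 (permutation p = 0.00325, adjusted p = 0.0455) and rho = -0.71 (permutation p = 0.0120, adjusted p = 0.168). Here r was -0.81 without controls 3 and 4 and -0.72 within the 8 STAT3 KO mice (exact permutation p = 0.0534). The genes differed in opposite directions between genotypes, and with the genotype means removed r was -0.45, and with those of genotype and sex removed -0.65. Pnoc and Pomc had r = 0.62 (permutation p = 0.0301, adjusted p = 0.223), rho = 0.54 (permutation p = 0.0758) and r = 0.83 within STAT3 KO mice (exact permutation p = 0.0160). With the genotype means removed r was 0.36, with those of genotype and sex removed 0.45, and without controls 3 and 13 it was 0.67. For ligand and main receptor r was -0.41 for Penk and Oprd1, 0.34 for Pnoc and Oprl1 and -0.39 for Pdyn and Oprk1 (adjusted permutation p = 0.489, 0.580 and 0.489). In the same order of pairs r was 0.11, 0.47 and -0.45 with the genotype means removed, and 0.12, 0.56 and 0.26 within the 8 STAT3 KO mice.

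**Figure D4:**
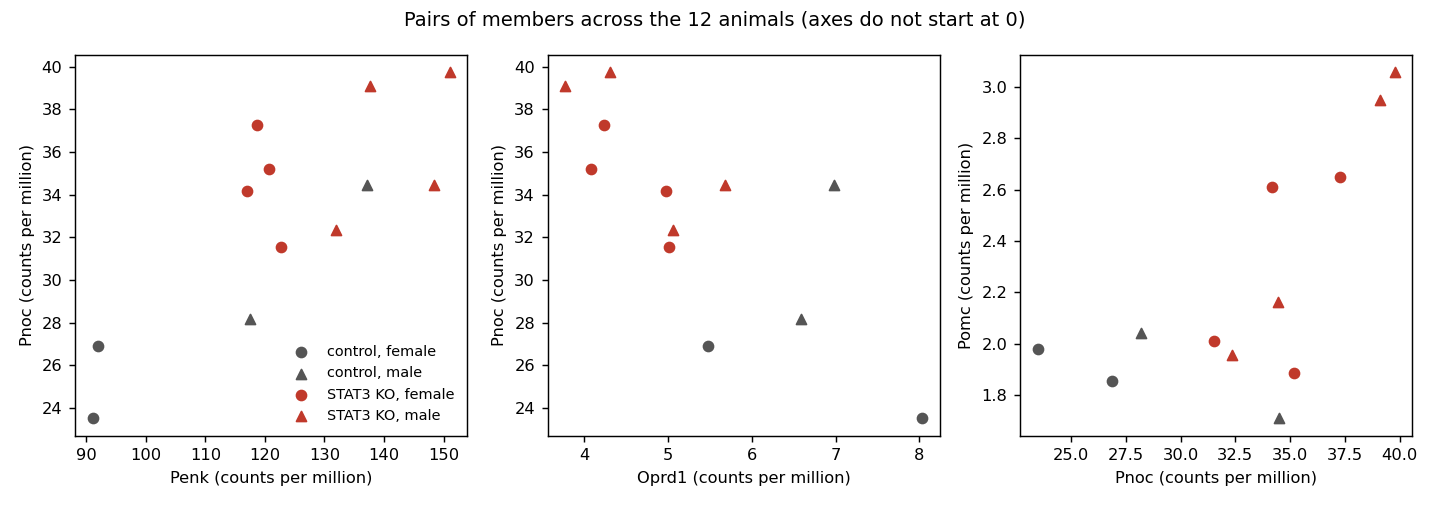
Pairs of members across the 12 animals in CPM, with controls in grey, STAT3 KO mice in red, females as circles and males as triangles; axes do not start at 0. Pnoc was higher where Penk was higher (r = 0.82 on the log2 scale, 0.50 without control females 3 and 13) and lower where Oprd1 was higher (r = -0.77), and Pomc was highest in STAT3 KO 6 and 8, where Pnoc was highest too.

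Of 120 relations between a member and the mean level of a list of cell type markers, 0 passed adjustment by permutation. The lowest p of r was that of Oprm1 with hypothalamic markers (r = -0.71, permutation p = 0.0101, rho = -0.71, permutation p = 0.0132, adjusted p of r 0.601). Pdyn followed forebrain excitatory markers with r = 0.74 (permutation p = 0.0180, adjusted p = 0.601) but rho = 0.36 (permutation p = 0.256), and without controls 4 and 3 r was 0.16, so this relation rested on those animals, of which control 4 held the highest Pdyn and the highest forebrain markers. Dopamine neuron markers had r = -0.71 with Pdyn (permutation p = 0.0143, rho = -0.61, permutation p = 0.0405), -0.64 with Penk (permutation p = 0.0266, rho = -0.55, permutation p = 0.0737) and -0.63 with Pnoc (permutation p = 0.0290, rho = -0.39, permutation p = 0.210), each with an adjusted p of r of 0.601. Control 3, lowest in Penk, Pdyn and Pnoc and highest in Oprd1, had the highest level of these markers, and without the 2 animals farthest from the median of each gene, control 3 among them, r was -0.31, -0.35 and -0.20. Penk, which is abundant in striatum, had r = 0.37 with striatal markers (permutation p = 0.241, rho = 0.19, permutation p = 0.558), whose sum was at 237 to 272 CPM in controls and 240 to 266 CPM in STAT3 KO mice. Pdyn had r = 0.63 with serotonergic markers (permutation p = 0.0313, rho = 0.70, permutation p = 0.0146, adjusted p of r 0.601).

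The genes with the most similar pattern over the 12 animals, by Pearson r of log2 CPM among 14141 genes with a mean of at least 1 CPM, were different for each member. For Oprd1 they were Tom1l2 (0.91), Slit3 (0.90) and Rtn4 (0.89), and for Pnoc Psme1 (0.93), Bex1 (0.93) and H2afy (0.92). Penk was most like Ccdc71 (0.92), Cgref1 (0.91) and Pafah1b3 (0.89), Pdyn most like Akap5 (0.94), Mlip (0.94) and Fhl2 (0.92), and Pomc most like Spcs1 (0.88), Arfgap2 (0.86) and Nsfl1c (0.85). Among the receptors, Oprm1 was most like Tenm1 (0.93), Snx29 (0.91) and Mbd5 (0.91), Oprl1 most like Dcaf13 (0.93), Tmx4 (0.92) and Reep5 (0.90), and Oprk1 most like Tube1 (0.87), Krt18 (0.83) and Rpp40 (0.81). These are descriptions, since the highest of 14141 values is high by selection, and no member stood among the 3 most similar genes of another.

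The rest of the pathway did not pass the genotype test either, and most of it lay close to 0. Counts of unadjusted p below 0.05 in the lists that follow stand beside 7.66% of all genes. The lists too were chosen with earlier results of these data known, so these shares are descriptions. Of 12 genes that cut and pack the precursors, 0 were called and 0 had an unadjusted p below 0.05 in the edgeR test. Their log2 fold changes ran from -0.07 to 0.06 (median 0.02), among them Pcsk2 (-0.07), a convertase that cuts Penk and Pdyn products, Cpe (-0.07), the carboxypeptidase that trims them, and Scg2 (0.06), a granule protein. Of 10 genes that degrade or scavenge opioid peptides, 0 were called and 1 (10% of the list) had an unadjusted p below 0.05, the endothelin-converting enzyme Ece2 at 0.11 (edgeR unadjusted p = 0.0300, adjusted p = 0.620). Prep was at -0.08 and Lnpep at -0.20, and neprilysin (Mme), which cuts enkephalin, ran from 27.2 to 30.6 CPM in controls and 22.7 to 32.1 CPM in STAT3 KO mice.

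Of 19 partners and desensitisers of the receptors, 0 were called and 3 (15.8%) had an unadjusted p below 0.05, against 7.66% of all genes. Rgs4, which shortens Gi signals, was at 91.8 to 135 CPM in controls and 83.4 to 94.4 CPM in STAT3 KO mice, with a log2 fold change of -0.26 (SE 0.08, edgeR unadjusted p = 0.00639, adjusted p = 0.615). The opioid growth factor receptor Ogfr, which is not related to the other receptors, was at 0.10 (edgeR unadjusted p = 0.0232) and Rgs9 at 0.14 (edgeR unadjusted p = 0.0352). The arrestins Arrb1 and Arrb2 were at 0.02 and -0.01. Of 20 Gi and Go proteins and effectors, 0 were called and 1 (5%) had an unadjusted p below 0.05, the potassium channel subunit Kcnj3 at -0.14 (SE 0.05, edgeR unadjusted p = 0.0102, adjusted p = 0.615), which ran from 79.6 to 83.9 CPM in controls and 67.9 to 81.6 CPM in STAT3 KO mice. Gng2 was at 0.10 and Kcnj5 at 0.15. Of 9 genes of the melanocortin system, which reads other products of Pomc, 3 could be tested and 0 had an unadjusted p below 0.05: Mrap2 at 0.09, Mc3r at 0.20 and Mc4r at 0.07.

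Promoters, from 250 bases before to 50 after each RefSeq start (GRCm38.p6), were searched for the STAT motif TTCNNNGAA, which reads the same on both strands. Of the 5 members with an entry, Pdyn and Oprl1 held it in 1 promoter each, and Oprd1, Oprm1 and Pomc did not, against 9.55% of 27025 genes. A match of these letters is a description and not a binding site. The log2 fold changes of Pdyn and Oprl1 were 0.01 and 0.0025.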

How the data were processed

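The authors made 1 DR library per animal, 4 from controls and 8 from STAT3 KO mice. The deposited files hold raw counts per gene symbol, made by the authors without normalisation. The submitters' processing notes name bcl2fastq, STAR 2.5.0b, DESeq2 1.6.3 and mm10, and the counter, annotation and strand setting are not given in the sources used here. Lines for reads without a single gene were left out, and 84.2% to 86.1% of the reads in each file were on genes. Genotype, sex and animal numbers came from the labels. No pair of libraries of the 66 agreed within sampling noise.

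Members and gene lists were chosen with earlier results of these data known. CPM of single genes are counts per 1000000 counts on the genes that passed the filter, with library sizes scaled by TMM factors. Log2 CPM also used a prior count of 2. The main test was the two-sided quasi-likelihood test of edgeR 4.0.16 (R 4.3.3) with TMM and filterByExpr (10 counts, 15 in total), with Benjamini-Hochberg adjustment over 15453 genes and a threshold of 0.05. Standard errors are the log2 fold change divided by the root of the test statistic. Single members were also compared over all splits of the animals into 4 and 8 (smallest p 0.00202), the sexes over 420 splits, and correlations with 100000 permutations, with exact permutations within STAT3 KO. Length per gene is the union of exons in GENCODE vM21. Floors of 3 counts cover counting error only. The quasi-likelihood test for genotype and the permutation test over splits into 4 and 8 were checked on simulated data.

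Alternatives were DESeq2 1.42.0, the edgeR likelihood ratio test, limma-voom (limma 3.58.1), RLE factors, library size only, other filters, sex as covariate, each animal left out, the libraries with raised forebrain markers (control 4, STAT3 KO 5, 15 and 16) or choroid plexus markers (STAT3 KO 8 and 16) left out, a prior count of 0.5, mean CPM and the longest transcript. For sex, the permutation within genotype, limma-voom and the left-out libraries were chosen after seeing the data. So was the reading of the Penk sex difference under every alternative, with the likelihood ratio test and each animal left out among them.

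The text names the 8 members, up to 3 genes with the lowest p per pathway list, 3 most similar genes per member, and Stat3, Tph2 and Slc6a4. The genes called for sex, Scg2, Cpe, Mme, Arrb1 and Arrb2 and the pituitary markers were named after their values were seen.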

Additional observations from a re-analysis of the deposited data

Results flagged for a closer look

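Pdyn was the member whose genotype difference took opposite signs in the sexes in every STAT3 KO animal: all 4 STAT3 KO females were above the mean of the control females and all 4 STAT3 KO males were below the mean of the control males in log2 CPM. The difference of these differences, males minus females, was -0.24. Control females were at 9.19 and 8.52 CPM, control males at 11.96 (control 4, the library with the highest forebrain markers) and 8.83 CPM. The interaction in the edgeR fit was -0.26 (SE 0.16, unadjusted p = 0.143, adjusted p = 0.951), so it did not pass the test. In the 16 combinations of member and genotype examined, 0 had a highest or lowest animal whose gap to the next in log2 CPM passed Dixon's criterion, where chance would give about 0.8. With 4 controls that criterion is strict, and the gap of control 4 in Pdyn did not pass it.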

How the results depend on the processing

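The count of genes called for genotype, 0 in the quasi-likelihood test, was 6 with DESeq2, 3 with the likelihood ratio test and 0 to 1 with each animal left out, while 0 members were called under all 22 alternatives. Oprd1, Pnoc, Penk, Pomc and Oprk1 kept their direction in all 22. Oprm1 turned to -0.059 without control 13 and -0.076 without STAT3 KO 7 (range -0.076 to 0.16 with each animal left out). Oprl1 turned to -0.027 with limma-voom and to -0.0048 without the 2 choroid plexus libraries, and ran from -0.034 to 0.038 with each animal left out. Pdyn ran from -0.037 to 0.14, negative without control 13, 3 or 11. For sex, 13 genes became 20 with the likelihood ratio test, and the members called ran from 0 to 1 with each animal left out, 0 without the 4 forebrain libraries and 0 without the 2 choroid plexus libraries. The interaction gave 1 gene with the likelihood ratio test and 0 to 37 with each animal left out, 37 without control 11. With the longest transcript as length, Pdyn over Oprk1 became -0.17 and Oprd1 over Oprm1 -0.19, since the lengths change, and 6 of 7 neighbours differed. With each animal left out 6 to 7 differed, 6 when any 1 of the 8 STAT3 KO mice was left out, where Pomc over Oprd1 was lost. The causes of the other changes were not tested. Depth limits Pomc and Oprm1 most, at 45 to 170 counts per library. Each animal had 1 genotype, and litter is not given in the sources used here, so litter could not be taken into account.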
